A study of Mus musculus with 18 samples.

Results

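The mouse major histocompatibility complex (MHC) class II genes H2-Aa, H2-Ab1 and H2-Eb1, their chaperone gene Cd74, the peptide-loading genes H2-DMa and H2-DMb1 and the transactivator gene Ciita were followed across the bone marrow cells of 6 mice. These 7 genes were chosen by name, as the class II genes proper and the genes closest to them in function, and all 7 were found among the 17757 genes of the short-read count table. The cells were lineage-negative and cKit-positive (LK) bone marrow cells, a fraction that holds stem cells and progenitors, from female C57BL/6J mice without a transgene or treatment. The young group was mice 1, 3 and 5 at 8 weeks, and the aged group was mice 2, 4 and 6 at 72 weeks. Each mouse gave 1 droplet library of 3′ transcript ends, read on a short-read instrument and on 2 long-read instruments. Lineage-positive cells had been depleted with a kit, and the stain for the sort included antibodies to the lineage markers Cd11b and Cd45R, so mature antigen-presenting cells were present only as far as they had passed the depletion and the gate.

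Class II molecules are pairs of an alpha and a beta chain that show peptides taken up from outside the cell to CD4 T cells. H2-Aa and H2-Ab1 encode the chains of I-A, H2-Eb1 encodes the beta chain of I-E, Cd74 encodes the invariant chain that fills the groove of a new class II molecule, and H2-DMa and H2-DMb1 encode the pair that exchanges the remnant of the invariant chain for peptide. C57BL/6 mice make no I-E at the surface, because their alpha chain gene is defective, although H2-Eb1 itself is transcribed. Ciita encodes the coactivator that switches on this whole set in dendritic cells, B cells and macrophages, and plasma cells are known to lose it.

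Depth differed between mice. The table held 681 to 1919 cells and 3628043 to 17585424 unique molecular identifiers (UMIs, each a captured molecule) per mouse, with a median of 4172 to 8498 UMIs per cell. Of 8394 cell barcodes, 42 occurred in 2 or more libraries, which touched 84 cells, among them 2 of the cells called class II-positive below. Mouse 6 had the fewest cells and the highest median share of mitochondrial UMIs, 1.996% against 0.703 to 0.928% in the other mice. Free RNA of plasma cells was uneven: 15 plasma cell genes together stood at 5400 CPM (UMIs per 1000000 UMIs of all genes in the same cells) in the erythroid-like cells of mouse 2 and at 56.2 to 317 CPM in those of the other mice. Cells were grouped by their other genes, with the 7 genes, the genes of their pathway and immunoglobulin genes among the 411 kept out of the clustering, and a cluster took a name ending in "-like" only from at least 3 marker genes.

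The genes of the 3 chains and of the DM pair lie in the class II region of chromosome 17 (GRCm38). H2-DMa (exons from 34119541 to 34139101, plus strand), H2-DMb1 (34153072 to 34160230, plus strand), H2-Ab1 (exons from 34257689 to 34269419, plus strand), H2-Aa (34282744 to 34287823, minus strand) and H2-Eb1 (34305867 to 34316674, plus strand) follow each other in that order. The gene record of H2-DMa begins only at 34135628. Ciita lies on chromosome 16 (exons from 10480059 to 10528418, plus strand). In the deposited annotation, exons of H2-DMa overlap those of Brd2 and exons of Ciita overlap those of Dexi, so counts near those ends may be shared.

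Promoters of class II genes are known for an X box, bound by the RFX complex, and a Y box, a CCAAT box read on the reverse strand and bound by NF-Y, on which Ciita is assembled. The RefSeq promoter windows of H2-Aa, H2-Eb1 and H2-DMb1 (GRCm38.p6, from 250 bases before to 50 bases after the start) are shown because they stand for 1 chain of I-A, the I-E beta chain and 1 chain of the DM pair, with capitals marking AACNGATG, letters of the X box core, and GATTGG or its reverse strand CCAATC, letters of the Y box.
H2-Aa, chr17:34287774-34288073, minus strand: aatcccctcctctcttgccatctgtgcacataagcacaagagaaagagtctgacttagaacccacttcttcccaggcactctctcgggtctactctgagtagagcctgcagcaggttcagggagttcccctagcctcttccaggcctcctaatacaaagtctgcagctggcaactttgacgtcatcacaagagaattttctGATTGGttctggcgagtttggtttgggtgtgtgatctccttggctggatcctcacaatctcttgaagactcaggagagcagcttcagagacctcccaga
H2-Eb1, chr17:34305617-34305916, plus strand: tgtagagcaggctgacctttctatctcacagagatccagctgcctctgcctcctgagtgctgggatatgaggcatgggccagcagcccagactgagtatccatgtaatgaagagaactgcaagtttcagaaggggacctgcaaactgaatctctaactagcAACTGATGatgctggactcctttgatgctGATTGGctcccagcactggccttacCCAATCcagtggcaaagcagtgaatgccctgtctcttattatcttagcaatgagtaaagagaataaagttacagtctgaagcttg
H2-DMb1, chr17:34152941-34153240, plus strand: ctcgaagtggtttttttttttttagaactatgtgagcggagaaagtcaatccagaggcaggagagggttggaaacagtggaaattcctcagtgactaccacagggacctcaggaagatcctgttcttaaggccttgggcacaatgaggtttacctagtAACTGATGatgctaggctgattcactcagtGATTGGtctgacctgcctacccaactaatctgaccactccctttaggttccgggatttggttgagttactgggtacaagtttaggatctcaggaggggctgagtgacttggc
GATTGG began 49 bases before the start in H2-Aa, 60 in H2-Eb1 and 62 in H2-DMb1, and AACNGATG began 89 bases before it in H2-Eb1 and 92 in H2-DMb1. H2-Eb1 had a further GATTGG on the reverse strand 35 bases before the start. H2-DMa had 2 RefSeq windows, of which 1 held GATTGG 199 bases before its start without AACNGATG and the other held neither. Both lie before the start of the H2-DMa gene record at 34135628, but within the span of its annotated exons. The window with neither motif (34122582 to 34122881) holds the start, at 34122832, of the protein-coding transcript H2-DMa-201. The window with GATTGG lies at 34125268 to 34125567. No window at the start of the gene record was searched, so its motifs are not known. Searched on both strands, GATTGG was present in 16.1% of 32851 promoter windows of the same length, AACNGATG in 2.32% and both in 0.335% (110 windows). GATTGG alone is thus common, AACNGATG is much less so, and the pair is rare.

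Molecules of the 7 genes were unevenly spread over cells. Cd74 had 14831 UMIs in 803 cells (9.52% of cells), H2-Aa 4599 in 640 cells (7.59%), H2-Eb1 2383 in 455 cells (5.39%) and Ciita 79 in 68 cells (0.806%). H2-DMa, in contrast, had 11460 UMIs in 5372 cells (63.7%), H2-Ab1 8262 in 2807 cells (33.3%) and H2-DMb1 2761 in 2017 cells (23.9%). Cd74, H2-Aa, H2-Eb1 and Ciita were thus found in a small minority of cells, and the other 3 genes were found widely. Of the 44375 UMIs of the set, mouse 1 gave 10799 and mouse 2 gave 22044, and the other mice gave 1272 to 6162.

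To tell expressing cells from droplets with free RNA, the summed UMIs of H2-Aa, H2-Ab1 and H2-Eb1 in each cell were compared with their rate in the erythroid-like cells of the same library, which should not make class II. That rate was 50.8, 67.2, 29.7, 32.7, 29.4 and 47.2 CPM in mice 1 to 6. It came mostly from H2-Ab1, at a mean of 38.1 CPM in erythroid-like cells, against 2.92 for H2-Aa and 1.12 for H2-Eb1. Above it, 250 of 8436 cells were called positive at an adjusted Poisson p under 0.01. With H2-Ab1 left out of the call, an alternative chosen after the data were seen, 259 were. By mouse, positive cells were 36 of 1659 cells (95% Wilson interval 1.57 to 2.99%), 94 (5.57% of cells, 4.57 to 6.77), 9 (0.587%, 0.309 to 1.11), 100 (5.21%, 4.3 to 6.3), 4 (0.418%, 0.163 to 1.07) and 7 (1.03%, 0.499 to 2.11). Intervals cover counting error only. Mice 2 and 4, both aged, had the highest shares, but the aged mouse 6 lay below the young mouse 1, so the ages overlapped. Of the 36 positive cells of mouse 1, 26 were conventional dendritic cell-like. The share was 1.06 ± 0.966% in young and 3.94 ± 2.52% in aged mice (SD, n = 3 each), and the difference of 2.88 percentage points did not stand out from the spread between mice (two-sided exact permutation p = 0.2, of which 0.1 is the smallest that 3 against 3 mice allow). Without the conventional dendritic cell-like and plasma cell-like cells, an alternative chosen after the data were seen, the share was 0.556, 0.522 and 0.418% in the young mice 1, 3 and 5 and 3.08, 5.06 and 1.03% in the aged mice 2, 4 and 6. Every aged mouse then lay above every young mouse (exact permutation p = 0.1). The call was not sharp at its edge: 7, 17, 4, 34, 1 and 2 positive cells of mice 1 to 6 held no more than 1 chain UMI above the fewest of their library's positive cells (3 or 4), and some cells with 4 to 6 chain UMIs stayed below it because their total depth was greater.

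**Figure D1:**
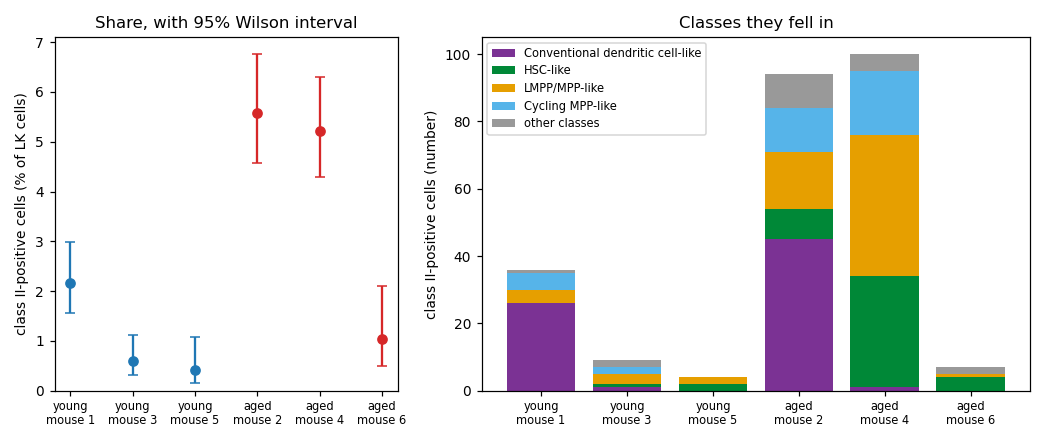
Share of cells called class II-positive in each mouse, in percent with 95% Wilson intervals, and the number of positive cells by cell class, stacked per mouse. The positive cells of mice 1 and 2 were mainly conventional dendritic cell-like or progenitors, whereas most of the 100 in mouse 4 were progenitors, and the 3 mice with the lowest shares held 4 to 9 positive cells.

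Cd74, H2-DMa, H2-DMb1 and Ciita took no part in this call and were therefore compared between positive and other cells of the same mouse. Cd74 reached 15600, 14600, 938, 720, 313 and 316 CPM in the positive cells of mice 1 to 6 and 45.8, 288, 3.92, 38.2, 1.11 and 16.2 in the other cells, so it was higher in positive cells in 6 of 6 mice (mean log2 ratio 6.46 ± 1.93, SD; exact sign-flip p = 0.03125, adjusted p = 0.0417). H2-DMb1 was also higher in 6 of 6 mice, at 78.9 to 743 CPM in positive and 25.4 to 45.1 in other cells (mean log2 ratio 2.46 ± 1.23, adjusted exact sign-flip p = 0.0417). H2-DMa was higher in 5 of 6 mice (mean log2 ratio 1.17 ± 0.955, exact sign-flip p = 0.0625) and lower in mouse 6, at 158 against 192. Without the conventional dendritic cell-like and plasma cell-like cells, an alternative chosen after the data were seen, the mean log2 ratio was 6.08 ± 1.36 for Cd74 and 1.45 ± 0.16 for H2-DMb1, each with an adjusted exact p of 0.0417. Ciita had 7, 31, 1, 2, 0 and 0 UMIs in positive cells and 10, 8, 2, 12, 2 and 4 in the others, too few for a direction outside mice 1 and 2.

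The positive cells were not spread evenly over cell classes. They made up 73 of 78 conventional dendritic cell-like cells (93.6%, Wilson interval 85.9 to 97.2), 49 of 263 haematopoietic stem cell (HSC)-like cells (18.6%, 14.4 to 23.8), 69 of 1013 cells like lymphoid-primed or other multipotent progenitors (LMPP/MPP-like, 6.81%), 39 of 1337 cycling MPP-like cells (2.92%) and 5 of 117 plasma cell-like cells (4.27%). Among 435 megakaryocyte-like, 946 GMP/monocyte progenitor-like, 953 PreGM-like and 499 neutrophil-like cells they numbered 4, 3, 1 and 2, and 5 of 590 cells in unnamed clusters were positive. None was found among 1127 erythroid-like cells, which supply the background and so bear on nothing, nor among 999 mast cell/basophil-like cells (0 of 999, which allows up to 0.3%) and 79 eosinophil-like cells (0 of 79, up to 3.8%). HSC-like cells had fewer UMIs than erythroid-like cells, with a median of 3595 against 7270, and fewer than LMPP/MPP-like cells, with 4703.

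**Figure D2:**
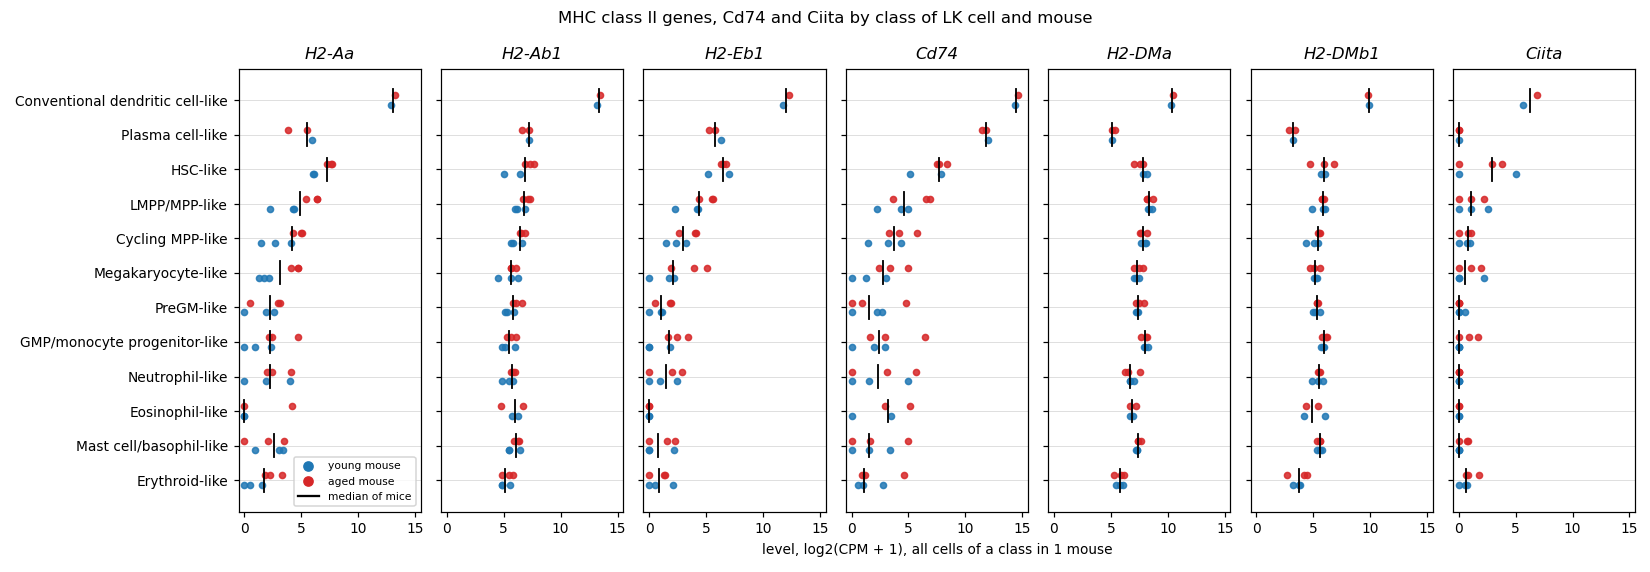
Level of each of the 7 genes in each cell class, as log2(CPM + 1), with 1 point per mouse that had at least 10 cells and a line at the median over mice. Conventional dendritic cell-like cells lead in all 7 panels, HSC-like cells stand above the progenitor classes for H2-Aa, H2-Eb1 and Cd74, plasma cell-like cells rise for Cd74, and H2-DMa is present in every class.

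Conventional dendritic cell-like cells carried the whole set. They numbered 28 in mouse 1 and 48 in mouse 2, with a single cell in each of mice 3 and 4 and none in mice 5 and 6, so no comparison of ages was made in them. H2-Aa stood at 7430 CPM in mouse 1 and 9850 in mouse 2, H2-Ab1 at 9320 and 11600, H2-Eb1 at 3470 and 5110, and Cd74 at 20700 and 24600. The single cells of mice 3 and 4 had 3400 and 2350 CPM of H2-Aa and 4940 and 5400 of Cd74. Levels in mice 1 and 2 were therefore close to each other, and the lone cells of the other mice held the same genes at lower levels.

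The loading and control genes followed in those cells. H2-DMa stood at 1220 and 1450 CPM in mice 1 and 2, H2-DMb1 at 977 and 902, and Ciita at 48.2 and 118. All 3 chains and Cd74 were found together in 72 of the 78 cells. A positive cell of this class held on average 130 UMIs of Cd74, 60.3 of H2-Ab1, 50.5 of H2-Aa, 25.3 of H2-Eb1, 7.41 of H2-DMa and 5.19 of H2-DMb1, and Ciita was seen in 27 of 73 such cells (37%). These 78 cells gave 20422 of the 44375 UMIs of the set. Their name rested on other genes: Batf3, a transcription factor of dendritic cells, was found in 58 of 78 cells, Clec9a in 24 and Xcr1 in 21, whereas the B cell genes Cd79a and Ms4a1, the macrophage gene C1qa and the plasmacytoid dendritic cell gene Siglech were found in 0 of 78.

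Most UMIs of the set in plasma cell-like cells came from Cd74. Cd74 lies on chromosome 18 (exons from 60803810 to 60812652, plus strand), and its exons overlap the microRNA gene Mir5107. In plasma cell-like cells it stood at 3940, 3670 and 2840 CPM in mice 1, 2 and 4, which had 13, 84 and 19 such cells. Every cell of the class had a Cd74 UMI. Cd74 made up 94.1% of the 4315 UMIs of the set in these cells. The chains were far lower than Cd74, at 13.6 to 59.2 CPM for H2-Aa, 37.0 to 76.1 for H2-Eb1 and 97.5 to 152 for H2-Ab1. They still stood above the 0 to 8.8, 0 to 3.26 and 28.3 to 56 CPM of erythroid-like cells, and H2-Eb1 lay within the 34.2 to 130 of HSC-like cells. With positive cells left out, H2-Eb1 was at 33.7 to 45.3, H2-Ab1 at 96 to 127 and H2-Aa at 5.77 to 12.5. Ciita had 0 UMIs in 117 cells, which allows a share of cells with a UMI of up to 2.56%. The class was defined by Jchain, found in 117 of 117 cells, and Mzb1, in 116, and it kept Cd79a in 101 cells and Ms4a1 in 26.

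Cd74 was higher in plasma cell-like than in erythroid-like cells of the same mouse in 3 of 3 mice, by a mean log2 ratio of 9.21 ± 2.01 with positive cells left out (exact sign-flip p = 0.25, the smallest that 3 mice allow). H2-DMa, by contrast, stood at 33.8, 33.3 and 39.2 CPM in plasma cell-like cells against 65.8, 57.6 and 37.9 in erythroid-like cells of mice 1, 2 and 4. With positive cells left out of both, it was lower in 3 of 3 mice (mean log2 ratio -0.69 ± 0.253). H2-DMb1 was at 6.17 to 9.79 CPM there.

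HSC-like cells showed H2-Aa, H2-Eb1 and Cd74 at a level between those of dendritic cells and of committed progenitors. The class held 11, 52, 16, 155, 9 and 20 cells in mice 1 to 6. H2-Aa stood at 65.1, 205, 68.4, 198, 335 and 154 CPM, against 1.95, 8.8, 0.45, 2.56, 0 and 3.73 in erythroid-like cells. Cd74 stood at 228, 176, 34.2, 340, 232 and 206 against 5.86, 24, 0.45, 0.854, 0.98 and 1.24, and H2-Eb1 at 34.2 to 130 against 0 to 3.26. For these 3 genes, HSC-like cells of every mouse lay above the erythroid-like cells of every mouse.

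The difference remained when the positive cells were left out of both classes and only the 5 mice with at least 10 HSC-like cells were used. Mean log2 ratios to erythroid-like cells were then 4.71 ± 1.11 for H2-Aa, 5.18 ± 0.611 for H2-Eb1 and 4.98 ± 1.88 for Cd74 (SD, n = 5), each higher in 5 of 5 mice with an exact sign-flip p of 0.0625, the smallest that 5 mice allow, and an adjusted p of 0.115. H2-DMb1 (2.62 ± 0.862) and H2-DMa (1.95 ± 0.501) were higher in 5 of 5 mice as well. For H2-Ab1 the mean was 0.66 ± 0.265, but its direction in mouse 1 came from the 1 UMI added to each sum. With the added UMIs shared between the sums by depth, which keeps the measured direction and was chosen after the data were seen, H2-Ab1 was higher in 4 of 5 mice (0.25 ± 0.419). H2-Aa (4.17 ± 0.818), H2-Eb1 (4.43 ± 0.425) and Cd74 (4.46 ± 1.75) were still higher in 5 of 5. Ciita had 6 UMIs in the whole class. In cells thinned to 2000 UMIs, which puts all cells at 1 depth, a UMI of H2-Aa was seen in 24 ± 4.48% of HSC-like cells (4 mice, 18.8 to 29.2%) and in 0.564 ± 0.461% of erythroid-like cells (6 mice).

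The genes kept other proportions in HSC-like cells than in the background. Of the 946 UMIs of the set in HSC-like cells, H2-Aa made up 19.7%, H2-Eb1 10.4% and Cd74 28.5%, against 2.5%, 1.2% and 4.17% of the 1080 UMIs in erythroid-like cells. H2-Ab1 made up 13.6% against 33.8% and H2-DMa 20.3% against 47.7%. In conventional dendritic cell-like cells the shares were 18% for H2-Aa, 21.5% for H2-Ab1, 9.05% for H2-Eb1, 46.5% for Cd74 and 2.74% for H2-DMa. H2-Aa and H2-Eb1 thus took shares in HSC-like cells near those in the dendritic cells, while H2-DMa took a larger one. Only 6 of the 68 HSC-like cells with an H2-Ab1 UMI had none of H2-Aa, H2-Eb1 or Cd74, whereas 250 of 278 such erythroid-like cells and 2111 of 2807 such cells of all classes had none. In mice 1 to 6 these were 0 of 1, 1 of 17, 0 of 3, 3 of 37, 0 of 2 and 2 of 8 HSC-like cells. Of erythroid-like cells they were 48 of 50, 30 of 48, 50 of 50, 71 of 77, 25 of 26 and 26 of 27. The shares above pool all mice and keep the 49 positive HSC-like cells, and mouse 4 gave 155 of the 263 HSC-like cells.

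**Figure D3:**
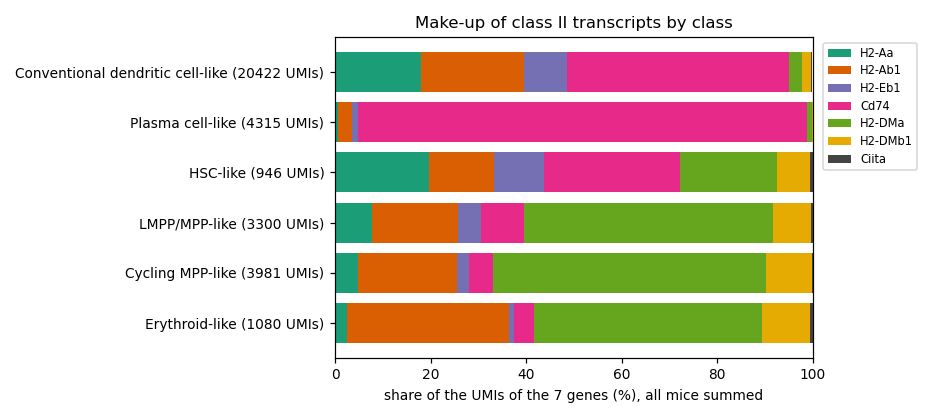
Share of each of the 7 genes in their summed UMIs, in percent, in 6 cell classes over all mice. Cd74 takes 94.1% in plasma cell-like and 46.5% in conventional dendritic cell-like cells, H2-DMa takes 47.7% in erythroid-like and 52.1% in LMPP/MPP-like cells, and HSC-like cells hold 19.7% H2-Aa.

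HSC genes stood near the same level in positive and other HSC-like cells. The markers of other cell types named here, given for the positive cells only, were found in few or none of them. Procr, a surface marker of HSCs, was found in 29 of 49 positive cells (59.2%) and 113 of 214 others (52.8%), Mecom in 26 of 49 and 94 of 214, and 17 HSC genes together made up 7760 and 7860 CPM. Xcr1, Batf3, Itgax, Cd79a, Ms4a1, C1qa and Siglech had no UMI in any of the 49, and Clec9a and Flt3 were seen in 1 cell each. Cd74, which the call did not use, was found in 39 of the 49 (79.6%) and in 54 of the 214 others (25.2%). The summed level of 18 dendritic cell genes in HSC-like cells was 502 to 650 CPM in 5 mice and 5470 in mouse 1, which had 11 such cells. In HSC-like cells of mouse 1 H2-Aa was the lowest of the 6 mice (65.1 CPM, 2 UMIs), whereas H2-Eb1 was the highest (130 CPM) and Cd74 stood at 228. What part RNA of dendritic cells had in these levels was not tested.

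LMPP/MPP-like and cycling MPP-like cells stood lower and varied more between mice. In LMPP/MPP-like cells H2-Aa was at 19.9, 84.8, 18.2, 80.5, 3.69 and 40.4 CPM in mice 1 to 6, Cd74 at 29.9, 116, 19.3, 92.3, 3.69 and 11.5, and H2-Eb1 at 3.69 to 48.5. Without positive cells, H2-Aa (mean log2 ratio to erythroid-like cells 2.46 ± 0.986), H2-Eb1 (2.84 ± 0.901), Cd74 (2.55 ± 1.69), H2-Ab1 (1.14 ± 0.334), H2-DMa (2.63 ± 0.318) and H2-DMb1 (2.03 ± 0.54) had a ratio above 1 in 6 of 6 mice with 1 UMI added to each sum, at an exact sign-flip p of 0.0312 and an adjusted p of 0.081 for each. For H2-Aa in mouse 5 that rested on the added UMI, since both sums were 0. With the added UMIs shared by depth, H2-Aa was higher in 5 of 6 mice, and the other 5 genes stayed higher in 6 of 6. Over all 10 classes compared in this way, 45 of 70 pairs of class and gene were higher in every mouse with 1 UMI added to each sum and 35 of 70 with the added UMIs shared by depth. An unadjusted exact p under 0.05 was found for 27 and 24 pairs, and 0 passed at an adjusted p under 0.05 in either way. In the 69 positive LMPP/MPP-like cells Procr was found in 22 (31.9%), against 96 of 944 others (10.2%), and Mecom in 18 (26.1%) against 85 (9%), while Flt3, a receptor of lymphoid-primed progenitors, was found in 24 (34.8%) and 321 (34%). The positive cells shared libraries and were not compared by a test.

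H2-DMa and H2-DMb1 did not keep to the cells with chains. H2-DMa stood at 390, 425, 316, 293, 328 and 286 CPM in LMPP/MPP-like cells and at 65.8, 57.6, 44.1, 37.9, 53.9 and 69.6 in erythroid-like cells, and the ranges did not overlap. After thinning, an H2-DMa UMI was seen in 48.8 ± 5.82% of LMPP/MPP-like, 39 ± 5.89% of GMP/monocyte progenitor-like, 37.5 ± 4.74% of cycling MPP-like and 12.6 ± 5.19% of erythroid-like cells (SD, n = 6 mice each). H2-DMb1 was seen in 11.1 ± 4.13%, 12.1 ± 4.36%, 7.7 ± 2.2% and 2.72 ± 1.73% of the same classes. H2-Ab1 was seen in 19.6 ± 7.41% of LMPP/MPP-like and 6.62 ± 1.61% of erythroid-like cells, and in the latter it is not told apart from free RNA.

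Ages were first compared over all LK cells. H2-Aa stood at 98.2, 6.86 and 2.9 CPM in the young mice 1, 3 and 5 and at 239, 23.3 and 16.0 in the aged mice 2, 4 and 6. Cd74 stood at 299, 8.52 and 2.07 against 833, 60.7 and 19.3, and H2-DMa at 215, 158 and 189 against 234, 152 and 192. The young mouse 1 exceeded the aged mice 4 and 6 for H2-Aa and Cd74, and the ages overlapped for all 7 genes. In edgeR's quasi-likelihood test 0 of the 7 genes were called, against a background of 0% of 12302 genes tested (at an unadjusted p under 0.05 there were 371, and 9 genes passed DESeq2, none of the set). The fold changes were log2 1.53 (SE 1.72) for Cd74, 1.32 (SE 1.33) for H2-Aa and -0.02 for H2-DMa, and the median of the 7 was 1.19 beside 0.0031 for all genes. These values rested on mice 1 and 2: without mouse 2 the log2 fold change was -1.33 for Cd74 and -0.89 for H2-Aa, and without mouse 1 it was 5.70 and 4.13. In bulk sums of this kind, more cells of a class and more RNA per cell cannot be told apart.

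Within LMPP/MPP-like cells the ages separated for H2-Aa and H2-Eb1. H2-Aa was at 13.9 ± 8.91 CPM in young and 68.6 ± 24.5 in aged mice (SD, n = 3 each), H2-Eb1 stood at 18.7, 17 and 3.69 in young and 45.4, 48.5 and 20.2 in aged mice, and for both the lowest aged mouse lay above the highest young mouse. The same held for 5.86% of 8683 genes of this class (those with a mean of at least 5 UMIs per mouse), against 2 of the 6 genes of the set that reach that mean. In edgeR's quasi-likelihood test, H2-Aa differed by log2 2.21 (SE 0.388), Cd74 by 2.05 (SE 0.549), H2-Eb1 by 1.5 (SE 0.416) and H2-Ab1 by 0.65 (SE 0.225), whereas the log2 differences of H2-DMa and H2-DMb1 were -0.09 and 0.10. None passed after adjustment (H2-Aa adjusted p = 0.474), and 0% of 6612 genes were called by edgeR (242 had an unadjusted p under 0.05).

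The H2-Aa call in LMPP/MPP-like cells depended on the model. DESeq2 gave log2 2.19 with an adjusted p of 0.0477, the only gene it called in this class, and edgeR with a term for mice 1 and 2, whose libraries held nearly all dendritic and most plasma cells, gave 2.25 with an adjusted p of 0.00983. Over the alternatives that left out 1 mouse the log2 fold change ran from 1.85 to 2.49, and without integration of the mice before clustering it was 1.48 (adjusted p = 0.67). With the positive cells left out it was 2.18 (adjusted p = 1.0), so the difference was also present among cells below the call, where the levels of mice 1 to 6 were 8.92, 37.7, 9.21, 26.4, 0 and 38.5 CPM. In erythroid-like cells, which supply the background, H2-Aa was far lower but separated by age as well. It stood at 1.95, 0.45 and 0 CPM in young and 8.8, 2.56 and 3.73 in aged mice, from 3, 1 and 0 against 11, 9 and 3 UMIs. That is below a mean of 5 UMIs per mouse, and 5.21% of 9287 genes that reach it separated in that way. What part free RNA had in the LMPP/MPP-like difference was not tested. In cluster 4 of the LMPP/MPP-like class (721 cells) the H2-Aa levels of mice 1 to 6 were 22.3, 135, 25.4, 95.2, 6.3 and 42.7 and did not overlap between ages. In cluster 12 (292 cells) they were 15.2, 23.9, 6.07, 41.1, 0 and 35.5, which did not overlap either but rested on 4, 9, 2, 19, 0 and 4 UMIs. The share of all genes that separate in this way was not computed for single clusters.

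Marker lists of other cells overlapped between ages in LMPP/MPP-like cells. The 17 HSC genes summed to 2560, 1860 and 1770 CPM in young and 1990, 2080 and 1870 in aged mice, and the 18 dendritic cell genes to 569 to 763 and 613 to 754. The 13 B cell genes summed to 49.9 to 90.9 and 47.9 to 148, and the 15 plasma cell genes to 258 to 731 and 306 to 6040, with the 6040 in mouse 2. Xcr1, Batf3 and Ms4a1 were at 0 in all 1013 cells. What part RNA of other cells had in the H2-Aa difference was not tested beyond these values.

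**Figure D4:**
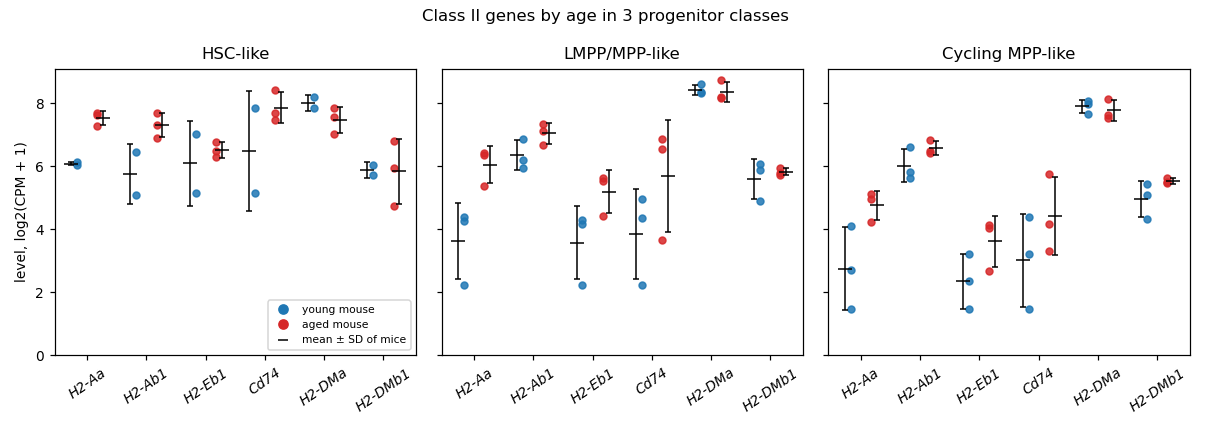
Levels of 6 genes in HSC-like, LMPP/MPP-like and cycling MPP-like cells, as log2(CPM + 1), each point a mouse with at least 10 cells, with a bar for the mean ± SD of each age. H2-Aa of the aged mice lies above that of the young mice in all 3 panels, whereas H2-DMa overlaps in all 3.

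Aged mice also lay above young mice for H2-Aa in 3 other classes in which it reached a mean of 5 UMIs per mouse. In 2 more classes that reached it the ages overlapped. H2-Aa was at 6.02 ± 4.55 CPM in young and 4.55 ± 5.26 in aged mice in mast cell/basophil-like cells. In GMP/monocyte progenitor-like cells it was at 1.7 ± 2.18 and 11.1 ± 12.6. In cycling MPP-like cells H2-Aa stood at 16, 5.49 and 1.74 CPM in young and 33.3, 29.9 and 17.8 in aged mice, which did not overlap (log2 1.66, SE 0.453, edgeR unadjusted p = 0.00375, adjusted p = 1.0). H2-DMb1 did not overlap either, at 42.5, 19.2 and 33 in young and 42.7, 48.2 and 44.5 in aged mice, and the same held for 6.18% of 10017 genes. Of 8473 genes 0% were called by edgeR (291 at an unadjusted p under 0.05) and 0 by DESeq2. In megakaryocyte-like cells H2-Aa stood at 1.41 to 3.61 CPM in young and 15.6 to 25 in aged mice, against 5.72% of 6991 genes that did not overlap with aged mice higher. The young values were 1 UMI per mouse, against 9, 14 and 8 UMIs in the aged mice 2, 4 and 6. H2-Aa thus reached the mean of 5 UMIs only through the aged mice, so that share is no like background for it. Without the 4 positive cells of the class the aged mice 2, 4 and 6 stood at 14.2, 10.2 and 6.27. In mast cell/basophil-like cells H2-DMa was at 154 ± 8.58 in young and 177 ± 22.9 in aged mice without overlap, as for 5.55% of 8886 genes. In HSC-like cells, with mouse 5 left out for its 9 cells, H2-Aa was at 66.8 ± 2.31 in 2 young and 186 ± 27.4 in 3 aged mice and H2-Ab1 at 59 ± 37.4 and 161 ± 43.7. With so few mice 15.4% of 4399 genes separated in that way, and 0% of 1194 genes were called by edgeR (50 at an unadjusted p under 0.05), while DESeq2 called 1 gene outside the set. H2-Aa differed there by log2 1.56 (SE 0.439, edgeR adjusted p = 0.836). It rested on 2 and 4 UMIs in the young mice 1 and 3 and on 35, 120 and 12 in the aged mice 2, 4 and 6. Here too H2-Aa reached the mean of 5 UMIs only through the aged mice, so the 15.4% is no like background for it. The 9 cells of mouse 5, a young mouse, held the highest H2-Aa level of the 6 mice, 335 CPM.

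The share of positive cells within a class was not called different between ages. In HSC-like cells it was 0 of 11, 1 of 16 and 2 of 9 in young and 9 of 52, 33 of 155 and 4 of 20 in aged mice. The mean over mice was 9.49 ± 11.5% in young and 19.5 ± 2.03% in aged mice for HSC-like cells, 2 ± 0.27% and 8.31 ± 6.62% for LMPP/MPP-like cells and 0.824 ± 0.825% and 3.82 ± 3.44% for cycling MPP-like cells, each with a two-sided exact permutation p of 0.4.

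Long reads counted the same molecules on another instrument. Cd74 had 125, 423, 9, 29, 1 and 7 reads in the Sequel runs of mice 1 to 6, the same order as the 3592, 10014, 72, 1068, 15 and 70 Cd74 UMIs in short reads. The Sequel II runs labelled mice 1 to 6 had 722, 2131, 55, 6, 143 and 37 Cd74 reads. Their order differs: the runs labelled 3, 4, 5 and 6 were most alike, over all genes, to the short reads of mice 6, 5, 4 and 3 (r = 0.323, 0.297, 0.346 and 0.433, against -0.0927 to 0.0943 with their own number), so these 4 labels are used as given and read with doubt. In each of the 4 cases the mouse most alike is of the other age, so the long-read difference between ages rests on doubtful labels. Summed per mouse as labelled, Cd74 differed by log2 1.27 (SE 1.2, edgeR adjusted p = 1.0) and H2-Aa by 0.62, with 0 of 6 genes of the set tested and 0% of 9244 genes called (154 at an unadjusted p under 0.05, and 0 by DESeq2). Without mouse 2 the value for Cd74 was -2.71, and without mouse 1 it was 2.69. Each Sequel run was most alike to the short reads of the mouse it was assigned to. In the Sequel runs alone, Cd74 differed by log2 1.69 (SE 1.13, edgeR adjusted p = 0.997).

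The pathway around the 7 genes was described with 7 lists. No gene of any list was called by age. In all LK cells together, the genes of each list had a median log2 fold change of -0.35 for the class II partner genes (3 of 5 tested), -0.02 for the regulators that bind X and Y boxes (7 of 7), 0.22 for processing and turnover genes (8 of 9), 0.05 for Mif and its receptors (4 of 4), 0.57 for costimulation genes (2 of 6), 0.31 for MHC class I genes (15 of 15) and 0.34 for interferon gamma response genes (13 of 16), beside 0.0031 for all genes. The class I genes were higher in aged mice in 14 of 15 cases, 4 of them at an unadjusted p under 0.05, and the interferon genes in 11 of 13. In LMPP/MPP-like cells the medians were 0.23 for class I (12 of 14 higher) and 0.40 for the interferon list (6 of 9 higher). In HSC-like cells class I had a median of 0.12 (5 of 7 higher), and no gene of the interferon list was tested.

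By class, H2-Oa, which encodes a chain of the inhibitor of the DM pair, stood at 210 ± 5.39 CPM in conventional dendritic cell-like, 35.3 ± 17.5 in HSC-like, 25.8 ± 9.15 in LMPP/MPP-like and 8.53 ± 2.9 in erythroid-like cells. H2-Ob, the other chain of that inhibitor, was at 87.2 ± 6.48 in conventional dendritic cell-like, 40.1 ± 10.1 in LMPP/MPP-like and 4.08 ± 5.47 in HSC-like cells, so the 2 chains were not found in the same order. Ctss, the protease that trims the invariant chain, was at 517 CPM in conventional dendritic cell-like and 415 in plasma cell-like cells. Cd86, a costimulatory ligand, was at 25.6 in conventional dendritic cell-like and 0 in plasma cell-like and erythroid-like cells. The class I heavy chain gene H2-K1 was at 1650 ± 124 in HSC-like, 951 ± 96.5 in LMPP/MPP-like and 561 ± 228 in erythroid-like cells.

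Genes whose levels were most like the summed chains were sought over 62 sums of 1 class in 1 mouse, as a description. Plbd1 (r = 0.838), Ppt1 (0.82), Psap (0.792), Ckb (0.763), Shisa5 (0.751), Fcgrt (0.736), Lsp1 (0.734), Cst3 (0.704), Tapbp (0.696) and Aif1 (0.671) came first, beside 0.829 for Cd74, 0.646 for H2-DMb1 and 0.551 for H2-DMa. The sums share libraries and differ in depth. Without the 2 sums of conventional dendritic cell-like cells, Shisa5 (0.838), Ly6a (0.804), a surface marker of stem and progenitor cells, and B2m (0.772), the light chain of class I, came first.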

How the data were processed

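Short-read counts of LK cells of 6 mice and long-read counts of the same libraries were used. The authors made the deposited short-read counts with Cell Ranger 3.0.2 and Seurat 3 as UMIs per gene and cell without normalization, after removing cells with few genes or a high mitochondrial share. Their long-read counts are reads per gene and run, which HTSeq had counted over the authors' own annotation after alignment with minimap2, and the submitters' processing notes name the builds mm10 and GRCm38.p6. Of the long reads, 47.4 to 52.4% fell on no gene and were left out. Each run was tied to a mouse by the mouse number of its label, and each cell by the library number that ends its name, taken as the mouse number of the labels.

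Cells were clustered with Seurat 5.3.0 in R 4.3.3 (integration of mice on 2000 variable genes and 20 dimensions, resolution 0.8, seed 42). A cluster was named from at least 3 marker genes among its 15 leading genes, each seen in at least 25% of its cells. Scrublet in scanpy 1.11.5 marked 37 of 8436 cells (0.439%), too few to be taken as having worked, so no cell was removed and the 104 cells with the highest scores were left out as an alternative.

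UMIs were summed per mouse and, within classes, over mice with at least 10 cells. Ages were compared with edgeR 4.0.16 (quasi-likelihood test, filterByExpr, TMM, Benjamini-Hochberg over all genes tested), with DESeq2 1.42.0 as an alternative. For shares of positive cells a two-sided exact permutation test was used, and for classes a two-sided exact sign-flip test over mice, with 1 UMI added to each sum. The SE of a log2 fold change was taken from the F statistic. Both the call of positive cells and the edgeR design were tested on simulated data. Depth was 3628043 to 17585424 UMIs and 1236696 to 2112841 long reads on genes per mouse. Levels are CPM (UMIs per 1000000 UMIs of all genes). They count 3′ ends without a correction for length, and shares of a gene in the set are shares of UMIs. Promoter sequences are RefSeq's for GRCm38.p6. Windows were found for H2-Aa, H2-Eb1, H2-DMb1 and H2-DMa.

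All 7 genes are named, with up to 4 examples per list and the 10 genes most alike the summed chains. The genes, lists, markers and tests were chosen with earlier results of these data known. Alternatives added after the data were seen left out mice 1 and 2, positive cells, HSC-like cells or dendritic and plasma cell-like cells, took H2-Ab1 out of the call, shared the added UMIs by depth, or changed the clusters.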

Additional observations from a re-analysis of the deposited data

How the results depend on the processing

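The number of the 7 genes called by age over all LK cells was 0 under each alternative run, and it was also 0 with any 1 mouse left out, within classes and in long reads. Within classes, none of 35 pairs of class and gene was called. DESeq2 called 1, edgeR with a term for mice 1 and 2 called 1, and edgeR without a filter on low counts called 9 of 67. Both single calls were in LMPP/MPP-like cells, where DESeq2 called 1 of 15660 genes and the fit with the added term 7 of 6612. The unfiltered fits called from 5 of 11346 genes (eosinophil-like) to 46 of 15559 (erythroid-like). Without mice 1 and 2 (added after the data were seen), Cd74 in HSC-like cells differed by log2 3.10. The young arm there was mouse 3 alone, with 16 cells and 2 Cd74 UMIs. That arm was assumed to vary like the aged mice, so no call is drawn from it. In long reads, edgeR without a filter called 1 (Cd74), beside 60 of 17221 genes in all. The unfiltered fits test many more genes with few counts, and the filter is the only step that differs. The cause of the other changes was not tested.

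With 1 mouse left out, the log2 fold changes over all LK cells ran from -0.89 to 4.13 for H2-Aa, -0.46 to 1.83 for H2-Ab1, -0.66 to 4.21 for H2-Eb1, -1.33 to 5.70 for Cd74 and -0.11 to 0.42 for H2-DMb1, and that of Cd74 in long reads from -2.71 to 2.69, with each lowest value without mouse 2 and each highest without mouse 1. Without mouse 3, that of H2-DMb1 was -0.02. The difference in the share of positive cells ran from 2.06 to 4.33 percentage points with 1 mouse left out and from 1.78 to 5.55 under other rules for the call, with an exact permutation p of 0.1 to 0.333.

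With 1 mouse left out, 41 (of 63) to 49 (of 70) pairs of class and gene were higher than erythroid-like cells in every mouse used, and 35 of 70 were with the added UMIs shared by depth. Against neutrophil-like cells 24 of 70 were, and H2-DMb1 in cycling MPP-like cells then stood at a mean log2 ratio of -0.265. At a resolution of 0.4 no neutrophil-like class was named. In HSC-like cells the median log2 fold change of all genes was 0.0326, but 0.882 without a filter and -0.0867 by DESeq2. No paired analysis was possible because the young and aged mice share no replicate number, and the term for mice 1 and 2 is not taken from such numbers.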

Other observations

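Of the 946 GMP/monocyte progenitor-like cells, the 3 called positive held 76 UMIs of Cd74, 35 of H2-Aa, 35 of H2-Ab1 and 9 of H2-Eb1 between them, whereas the 39 positive cycling MPP-like cells held 54, 86, 120 and 49. A Cd74 UMI without any UMI of the 3 chains was seen in 25 of 1013 LMPP/MPP-like, 39 of 1337 cycling MPP-like, 36 of 946 GMP/monocyte progenitor-like and 22 of 1127 erythroid-like cells.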
